A study of Homo sapiens with 35 samples.

Results

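The FOS and JUN family is the set of 7 protein-coding genes FOS, FOSB, FOSL1, FOSL2, JUN, JUNB and JUND, chosen by symbol among the 19665 protein-coding entries of the deposited count table. All 7 had counts in the 35 libraries of RPMI-8226 cells and were among the 17999 entries tested.

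The proteins of this family are basic leucine zipper transcription factors that pair through their zippers to form AP-1. JUN proteins can pair with each other or with a FOS protein, whereas FOS proteins need a JUN protein or another zipper partner to bind DNA. FOS, FOSB, JUN and JUNB are immediate-early genes, whose short-lived RNAs rise within minutes of a growth or stress signal, and JUND is expressed more steadily in most cell types. FOSL1 and FOSL2 lack the C-terminal activation domain of FOS and FOSB.

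RPMI-8226 is an established multiple myeloma line. All cultures were of this 1 line, and every treated group carried the same treatment, a 1 h pulse of 750 nM carfilzomib, an irreversible proteasome inhibitor, after which cells were washed and returned to fresh medium without the drug. Day 0 and days 1, 2, 4, 6, 8 and 10 were represented by 5 subcultures each. The labels list carfilzomib for day 0 too, but according to the methods the day 0 cells preceded the drug, and they are treated here as the untreated group. The methods describe subcultures split from an expanded culture, while a legend of the study calls the RNA data independent experiments, so that the spread between replicates may not cover separate experiments. The methods name fewer subcultures than there are RNA samples, so that subcultures were sampled on more than 1 day, and the labels do not say whether a replicate number marks the same subculture. The tests treat the libraries as independent. Cultures were given new medium on day 0 ahead of the drug, and the methods do not say on which side of that change the day 0 cells were taken. Day 1 cells were collected 1 day after the pulse, and cells of day 2 and later immediately before a medium change. In comparisons with day 0 the drug and the time since the last medium change therefore cannot be told apart, whereas days 2 to 10 shared the interval. Cell density was also set on day 0, ahead of the drug, and reset on days 6 and 8. The last medium change before days 8 and 10 thus came with a reset, and that before days 4 and 6 did not. Days 1 and 2 followed the setting of day 0. All 6 comparisons with day 0 share the same 5 day 0 libraries. In bulk RNA, fewer cells that express a gene and less RNA per cell cannot be told apart.

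Libraries held 6519392 to 10962890 estimated counts, of which 78.1% to 84.9% were protein coding, and 3 counts, the number used as a detection floor, corresponded to 0.322 to 0.601 counts per 1000000 (CPM). CPM here are counts scaled to the protein-coding total of a library after TMM normalization. All 8 plasma cell markers checked (SDC1, TNFRSF17, IRF4, PRDM1, XBP1, CD38, MZB1 and JCHAIN) had counts in all 35 libraries, with a summed level of 6350 to 7260 CPM on day 0, 2570 to 2920 CPM on day 1 and 7110 to 8500 CPM on day 10. JCHAIN was the largest part of this sum, at 1280 to 6360 CPM over the 35 libraries. SDC1 was at 210 to 362, IRF4 at 292 to 574, PRDM1 at 68 to 106 and XBP1 at 370 to 498 CPM. TNFRSF17 was at 12 to 86, CD38 at 62.2 to 275 and MZB1 at 199 to 724 CPM. Of 8 markers of other cells, the collagen gene COL1A2 was at 0, CD3D and HBB had 3 and 5 counts in all libraries together, CD14 and COL1A1 reached at most 2.15 and 1.43 CPM, and CD3E, MS4A1 and EPCAM were present in every library, EPCAM at 44 to 95.7 CPM. The summed level of these 8 genes was 59.3 to 85.4 CPM on day 0 and between 81.6 and 109 CPM on later days. The part of these shifts in the levels of FOS and JUN genes was not tested.

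The 7 genes lie on 5 chromosomes (GRCh38, GENCODE). FOS (chr14:75278826-75282230), FOSB (chr19:45467995-45475179) and FOSL2 (chr2:28392448-28417317) are on the plus strand and FOSL1 (chr11:65892049-65900573) on the minus strand, each with 4 exons in the reference transcript. JUN (chr1:58776845-58784048, minus strand), JUNB (chr19:12791486-12793315, plus strand) and JUND (chr19:18279694-18281622, minus strand) have a single exon. FOSB lies within ERCC1 and JUNB within HOOK2, both on the opposite strand. FOSL2 overlaps the long noncoding RNA gene FOSL2-AS1 on the opposite strand by 2233 bases. It also overlaps another long noncoding RNA gene on its own strand by 296 bases. The library kit marked the strand, but whether pseudoalignment used it is not given in the sources used here, so that reads of these overlapping pairs may not have been separated fully. ERCC1 ranged from 25.9 to 60.2 CPM and HOOK2 from 25.6 to 64.4 CPM over the 35 libraries, while FOSB was as low as 0.128 CPM. ERCC1 and HOOK2 were lower on day 1 than on day 0 without overlap. Their means were 28.3 against 54.65 CPM for ERCC1 and 28.2 against 46.8 CPM for HOOK2. On day 10 they were at 46.6 and 51.3 CPM. The part of unseparated reads in the levels of FOSB and JUNB was not tested.

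Promoter sequences of 6 members (all but FOSL1) were taken from RefSeq (GRCh38.p14), and the stretch directly before the annotated start is shown because it holds most of the motif matches described next. The RefSeq starts equal those of the GENCODE reference transcripts, and that of FOSL2 lies 410 bases inside the gene as GENCODE annotates it, so that the FOSL2 stretch is within the gene coordinates given here. Positions are counted from the start, with -1 the base before it. Capitals mark the matches named after the sequences.
FOS (chr14:75278718-75278827, plus strand): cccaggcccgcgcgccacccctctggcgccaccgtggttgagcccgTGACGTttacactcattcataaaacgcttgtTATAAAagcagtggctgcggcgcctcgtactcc
FOSB (chr19:45467886-45467995, plus strand): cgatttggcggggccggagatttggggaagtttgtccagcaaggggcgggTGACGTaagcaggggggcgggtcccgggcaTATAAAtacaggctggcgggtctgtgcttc
FOSL2 (chr2:28392748-28392857, plus strand): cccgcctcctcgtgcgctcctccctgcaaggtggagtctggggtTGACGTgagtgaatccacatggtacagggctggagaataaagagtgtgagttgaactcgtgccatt
JUN (chr1:58784048-58784207, minus strand): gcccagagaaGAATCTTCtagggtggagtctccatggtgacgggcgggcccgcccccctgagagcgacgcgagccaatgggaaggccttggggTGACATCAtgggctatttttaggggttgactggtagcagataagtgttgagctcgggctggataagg
JUNB (chr19:12791376-12791485, plus strand): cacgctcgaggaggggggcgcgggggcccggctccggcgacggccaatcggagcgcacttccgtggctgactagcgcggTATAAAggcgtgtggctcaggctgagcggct
JUND (chr19:18281623-18281862, minus strand): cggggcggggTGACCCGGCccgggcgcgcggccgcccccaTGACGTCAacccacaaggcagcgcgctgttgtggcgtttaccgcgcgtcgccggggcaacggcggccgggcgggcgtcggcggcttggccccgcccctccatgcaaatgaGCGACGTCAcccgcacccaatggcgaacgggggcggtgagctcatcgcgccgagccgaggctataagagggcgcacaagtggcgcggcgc

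Both strands of the window from 250 bases before to 50 bases after the start were searched in these 6 promoters and in all 35116 of the table. The core of the cyclic AMP response element, TGACGT, a motif added after the sequences had been seen, was found in 4 of the 6 and in 7.98% of all promoters. It lay at -64 in FOS, at -60 in FOSB, at -66 in FOSL2 and at -200, -198 and -87 in JUND. The JUND matches at -200 and -198 are the opposite strands of the same palindrome. The whole element, TGACGTCA, was found at -200 in JUND and in 1.85% of all promoters. Its variant TGACATCA, known from the JUN promoter, lay at -67 in JUN and in 2.61% of all promoters. A TATA box (TATAAA) stood at -33 in FOS, -30 in FOSB and -31 in JUNB, against 11.5% of all promoters. JUN held a heat shock element of the form GAANNTTC at -150 (6.77% of all promoters). JUND held antioxidant response elements of the form TGACNNNGC at -230 and, overlapping a TGACGT core, at -90 (13.3%). The AP-1 site itself, TGACTCA, was found only in FOSL2 among the 6, at position 5 after the start, outside the stretch shown (4.95%). The CArG box bound by serum response factor was in none of these windows and in 1.29% of all promoters. A match is a description of letters, and the absence of one says nothing of a site outside the window.

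**Figure D1:**
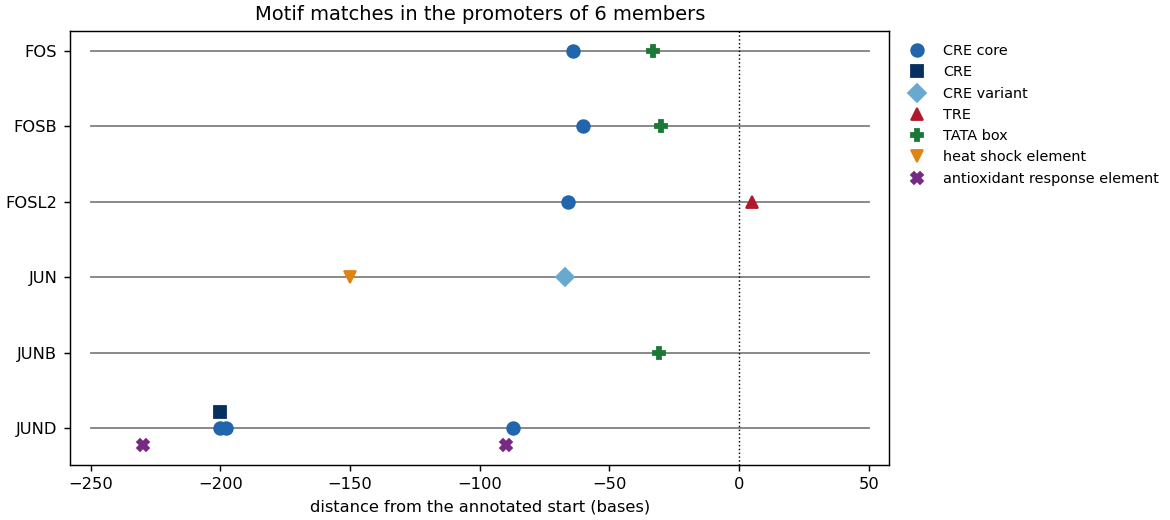
Position of each motif match, in bases from the annotated start, in the promoter windows of FOS, FOSB, FOSL2, JUN, JUNB and JUND; the dotted line is the start. TGACGT cores of FOS, FOSB and FOSL2 and the JUN variant lie between -60 and -67, and the TATA boxes of FOS, FOSB and JUNB between -30 and -33.

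Which members of AP-1 changed at the RNA level while the cells met and recovered from proteasome inhibition was asked by comparing each day with day 0. All 7 genes were lower on each of the 6 days (edgeR's quasi-likelihood test, Benjamini-Hochberg Q ≤ 0.05), and in all 6 comparisons every library lay below every day 0 library. The share of all entries tested that was lower was, in order from day 1 to day 10, 27.3%, 24.4%, 20.1%, 17%, 18.6% and 15.8%, and 6.89% were lower on all 6 days. The share of entries with every library below every day 0 library was, in the same order, 20.1%, 18.2%, 14.6%, 12.4%, 12.9% and 11.5%, and 4.66% for all 6 days together. All shares here and below are over the 17999 entries, of which 12301 had enough counts for filterByExpr. Entries with few counts can hardly be called, so that the shares may understate those of well expressed genes. A fall of more than 2-fold was seen, in the same order of days, in 5 members (13.2% of all entries), 7 (8.94%), 6 (5.29%), 5 (3.52%), 4 (4.58%) and 6 (3.52%). FOS, FOSB and FOSL2 fell more than 2-fold on all 6 days, as did 1.36% of all entries. Log2 fold changes are given below with their SE. The median log2 fold change of the 7 genes was -1.73 on day 1, -2.80 on day 2 and -1.90 on day 10, against -0.06, -0.04 and -0.02 for all entries. Without scaling factors the median of the 12301 entries with enough counts (kept by filterByExpr) moved by 0.11, 0.13 and 0.11 on the log2 scale on days 1, 2 and 4. The members stayed lower on each day.

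**Figure D2:**
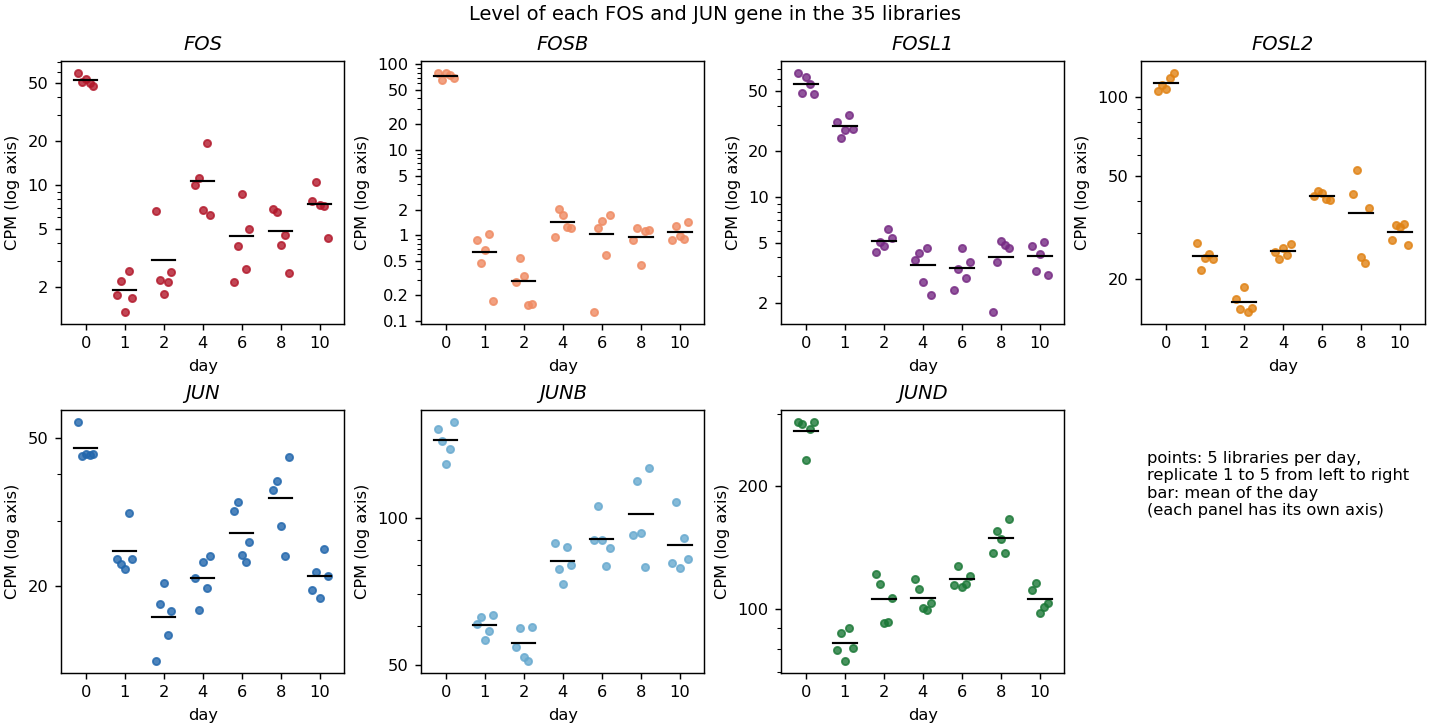
CPM on a log axis of the 7 genes in each of the 35 libraries by day; points are libraries and bars the mean of a day, and each panel has its own axis. Every point after day 0 lies below every day 0 point, and the highest means after day 2 are on day 4 for FOS and FOSB, on day 6 for FOSL2 and on day 8 for JUN, JUNB and JUND.

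**Figure D3:**
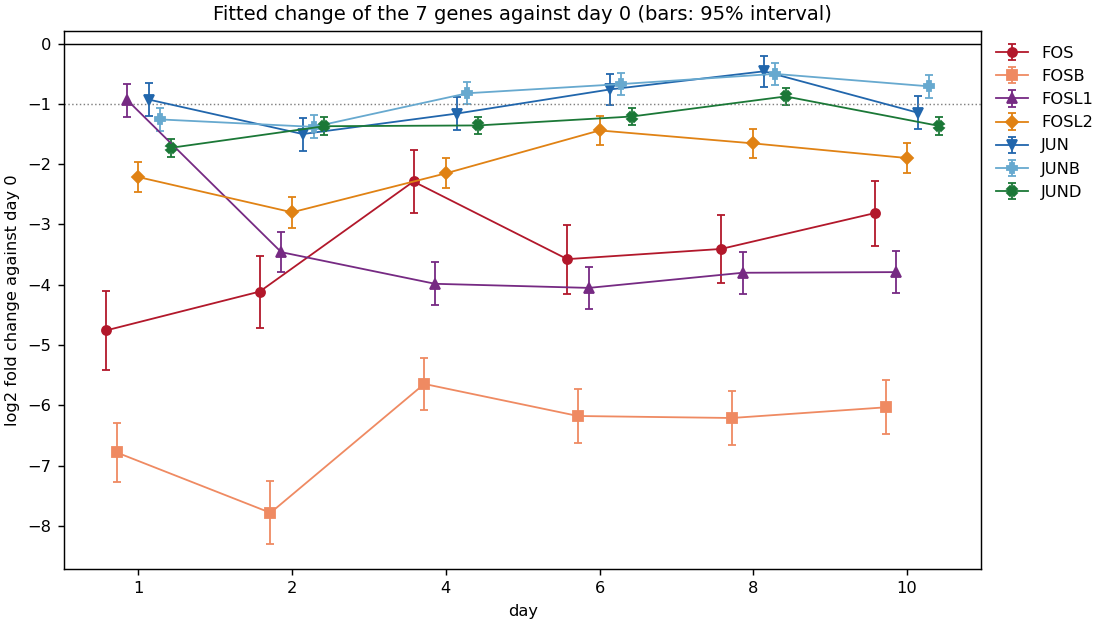
Fitted log2 fold change of each gene against day 0 by day, with its 95% interval (n = 5 libraries per day); the dotted line marks a 2-fold fall. FOSB is lowest throughout, from -7.78 on day 2 to -5.64 on day 4, while JUN, JUNB and JUND lie between -1.73 and -0.46. The intervals of FOSB are too narrow, because its counts after day 0 are few.

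FOS, the founding member and a typical immediate-early gene, was nearly lost on day 1 and regained a small part of its level by day 10. It was at 58.6, 51.1, 53.6, 49.9 and 48.1 CPM in replicates 1 to 5 of day 0 and at 1.76, 2.20, 1.35, 2.57 and 1.69 CPM on day 1. The highest day 1 library thus lay far below the lowest of day 0, and the log2 fold change was -4.76 ± 0.32 (edgeR adjusted p = 1.51e-16). On day 2 FOS was at 6.60, 2.25, 1.80, 2.16 and 2.52 CPM, and on day 4 at 10.0, 11.2, 6.75, 19.3 and 6.22 CPM. Replicate 1 stood well above the rest on day 2 and replicate 4 on day 4, so that these means, 3.07 ± 1.99 and 10.7 ± 5.26 CPM, are less certain than that of day 0, 52.3 ± 4.08 CPM. FOS was then at 2.17, 3.80, 8.69, 2.64 and 5.03 CPM on day 6, 6.81, 6.54, 3.91, 4.51 and 2.49 CPM on day 8 and 7.74, 10.5, 7.27, 7.18 and 4.33 CPM on day 10. These 3 days overlap with each other and stayed at 8.54%, 9.28% and 14.2% of the day 0 mean. From day 2 to day 4 the change was 1.82 ± 0.32 (edgeR adjusted p = 1.05e-05), from day 4 to day 6 it was -1.29 ± 0.30 (edgeR adjusted p = 0.00261), and day 10 lay above day 2 by 1.30 ± 0.33 (edgeR adjusted p = 0.00139). The change from day 1 to day 2 was not called (0.65 ± 0.41, edgeR adjusted p = 0.237).

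FOSB, which like FOS carries an activation domain, showed the largest fitted fall of the 7 on every day, and on day 2 the largest among all 17999 entries. It was at 79.0, 65.4, 78.5, 74.8 and 69.7 CPM on day 0 and at 0.882, 0.472, 0.677, 1.03 and 0.169 CPM on day 1. On day 2 it reached 0.287, 0.536, 0.338, 0.154 and 0.157 CPM, from 2, 5, 3, 1 and 1 counts, so that 3 of the 5 libraries lay under the floor of 3 counts, as did 1 of day 1. The rank of the day 2 fall and its fitted size therefore rest mostly on values under the floor. The log2 fold change was -6.78 ± 0.24 on day 1 (edgeR adjusted p = 7.86e-26) and -7.78 ± 0.26 on day 2 (edgeR adjusted p = 1.8e-26). By summed counts scaled to depth, 2148 counts on day 0 against 12 on day 2, FOSB was 233-fold lower, with an exact 95% interval of 133 to 452 that covers counting error only. The fitted 95% interval of day 2, -8.31 to -7.26 on the log2 scale, is narrower on that scale than this counting interval. The SE of FOSB against day 0 is therefore too small at these counts. Of the 20 later libraries 2 were at or under the floor of 3 counts, and FOSB was at 0.956, 2.05, 1.72, 1.27 and 1.21 CPM on day 4, 0.128, 1.22, 1.48, 0.587 and 1.72 CPM on day 6, 0.873, 1.23, 0.451, 1.13 and 1.15 CPM on day 8 and 0.879, 1.28, 0.969, 0.917 and 1.44 CPM on day 10. Libraries of day 4 and of day 10 did not overlap with those of day 2, and the changes were 2.14 ± 0.42 (edgeR adjusted p = 7.64e-05) and 1.75 ± 0.45 (edgeR adjusted p = 0.00149). Even so the day 10 mean was 1.49% of day 0.

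FOSL1, whose protein lacks the activation domain, fell in steps and, unlike the other 6 genes, was not called as varying among days 2 to 10. It was at 66.0, 48.7, 62.4, 55.9 and 47.7 CPM on day 0 and at 31.5, 24.4, 27.8, 34.6 and 28.1 CPM on day 1. The day 1 mean was 52.1% of day 0, and the log2 fold change of FOSL1 was -0.94 ± 0.14 (edgeR adjusted p = 1.11e-07). On day 2 it was at 4.31, 5.04, 4.73, 6.17 and 5.35 CPM, below every day 1 library, with a change of -2.52 ± 0.16 from day 1 (edgeR adjusted p = 1.19e-16). It was at 3.82, 4.26, 2.73, 4.59 and 2.25 CPM on day 4, 2.43, 3.34, 4.59, 2.94 and 3.73 CPM on day 6, 1.75, 3.70, 5.11, 4.79 and 4.60 CPM on day 8 and 4.75, 3.27, 4.20, 5.04 and 3.05 CPM on day 10. Libraries of these 4 days overlap, their means were 6.07% to 7.23% of day 0, and the test of any difference among days 2 to 10 gave an edgeR adjusted p of 0.112. The change from day 2 to day 4 lay just outside the threshold (-0.53 ± 0.21, edgeR adjusted p = 0.0526).

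FOSL2, which lacks the activation domain like FOSL1, had its lowest mean on day 2 and its highest after day 0 on day 6. It was at 106, 112, 107, 119 and 124 CPM on day 0, 27.5, 21.7, 24.1, 25.0 and 23.8 CPM on day 1 and 16.8, 15.3, 18.7, 15.0 and 15.4 CPM on day 2. Libraries of the 3 days do not overlap, and the log2 fold change against day 0 was -2.21 ± 0.12 on day 1 (edgeR adjusted p = 3.04e-19) and -2.80 ± 0.13 on day 2 (edgeR adjusted p = 5.29e-22). It was at 25.5, 23.8, 26.3, 24.7 and 27.3 CPM on day 4 and 41.8, 43.8, 42.8, 40.5 and 40.2 CPM on day 6. Each of these days lay above the day before it without overlap, with changes of 0.65 ± 0.14 (edgeR adjusted p = 0.000248) and 0.71 ± 0.13 (edgeR adjusted p = 9.09e-05). On day 8 it was at 42.6, 52.4, 24.2, 23.0 and 37.5 CPM and on day 10 at 28.3, 32.4, 31.8, 32.4 and 26.9 CPM. The day 8 libraries spread far more than those of day 6, replicates 3 and 4 being lowest, and the SD was 12.5 CPM against 1.49 CPM. Day 10 remained above day 2 by 0.90 ± 0.14 (edgeR adjusted p = 6.44e-07) at 26.7% of day 0.

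JUN, which pairs with every FOS protein and is a substrate of the JNK kinases, had a smaller fitted fall than any gene of the FOS group on days 2 to 10 and was nearest to day 0 on day 8. It was at 55.3, 44.8, 45.4, 45.1 and 45.2 CPM on day 0 and at 23.7, 23.0, 22.4, 31.6 and 23.7 CPM on day 1. Replicate 1 was the highest of day 0 and replicate 4 of day 1, and the log2 fold change was -0.93 ± 0.13 (edgeR adjusted p = 6.61e-08). JUN was at 12.6, 17.9, 20.4, 14.8 and 17.1 CPM on day 2, 21.0, 17.3, 23.3, 19.8 and 24.2 CPM on day 4 and 31.9, 33.7, 24.3, 23.2 and 26.3 CPM on day 6. Day 2 lay below every day 1 library (-0.57 ± 0.14, edgeR adjusted p = 0.000831), and the later days overlap with their neighbours. The step from day 2 to day 4 was not called (0.34 ± 0.14, edgeR adjusted p = 0.0667) and that from day 4 to day 6 was close to the threshold (0.40 ± 0.14, edgeR adjusted p = 0.0445). On day 8 JUN was at 36.3, 38.5, 29.1, 24.1 and 44.6 CPM, its highest library within 0.127 CPM of the lowest of day 0, and the log2 fold change against day 0 was -0.46 ± 0.13 (edgeR adjusted p = 0.00316). On day 10 it was at 19.5, 21.9, 18.6, 25.2 and 21.3 CPM, lower than on day 8 by a log2 fold change of -0.69 ± 0.13 (edgeR adjusted p = 0.000324) with 1 day 10 library inside the day 8 range. The difference between day 10 and day 2 was small (0.35 ± 0.14, edgeR adjusted p = 0.0473). The calls of day 6 against day 4 and of day 10 against day 2 were lost with the replicate block or without scaling factors, the former also with RLE factors and the latter with all biotypes summed, and when single libraries of either day were left out (edgeR adjusted p up to 0.158 and 0.157).

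JUNB, an immediate-early gene and a weaker activator than JUN in most settings, was at 152, 144, 129, 139 and 157 CPM on day 0, 60.7, 62.6, 56.4, 58.8 and 63.2 CPM on day 1 and 54.4, 59.5, 52.0, 51.0 and 59.9 CPM on day 2. Days 1 and 2 overlap and both lay far below day 0, with log2 fold changes of -1.26 ± 0.09 (edgeR adjusted p = 3.55e-15) and -1.38 ± 0.09 (edgeR adjusted p = 2.14e-16). It was at 88.9, 78.5, 73.3, 87.3 and 80.1 CPM on day 4, 90.2, 106, 90.3, 79.9 and 86.9 CPM on day 6, 92.2, 119, 93.0, 79.5 and 126 CPM on day 8 and 80.7, 108, 79.0, 91.1 and 82.3 CPM on day 10. All libraries of these 4 days lay above all of day 2. The step from day 2 to day 4 was 0.56 ± 0.10 (edgeR adjusted p = 8.08e-06), none of the later steps was called, and on day 8 the mean reached 70.7% of day 0. Day 10 lay above day 2 by 0.67 ± 0.10 (edgeR adjusted p = 1.55e-07).

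JUND, the member with the highest level per kb on all 7 days, had its lowest mean on day 1. It was at 286, 284, 232, 276 and 287 CPM on day 0, 79.5, 87.3, 74.7, 89.9 and 80.5 CPM on day 1 and 122, 115, 92.6, 93.2 and 106 CPM on day 2. Replicate 3 was the lowest of day 0 and still above every later library. The log2 fold change was -1.73 ± 0.07 on day 1 (edgeR adjusted p = 3.42e-23), and day 2 lay above every day 1 library by 0.36 ± 0.07 (edgeR adjusted p = 9.22e-05). JUND was at 118, 112, 100.3, 99.7 and 103 CPM on day 4, 115, 127, 113, 115 and 121 CPM on day 6, 137, 156, 149, 137 and 166 CPM on day 8 and 111, 116, 98.0, 101 and 104 CPM on day 10. Day 8 lay above day 6 (0.33 ± 0.07, edgeR adjusted p = 0.00372) and above day 10 (-0.49 ± 0.07 for day 10 against day 8, edgeR adjusted p = 3.41e-06), in both cases without overlap. The day 10 level was not distinguishable from day 2, with a 95% interval of the log2 difference from -0.15 to 0.15.

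Among days 2 to 10, all collected before a medium change but with the density reset on days 6 and 8, 6 of the 7 genes varied (edgeR, Q ≤ 0.05), against 43.2% of all entries. From day 1 to day 2, FOSL1, FOSL2 and JUN were lower (19.4% of all entries) and JUND was higher (20.2%). From day 2 to day 4, FOS, FOSB, FOSL2 and JUNB were higher (13.9%) and none was lower (16.7%). From day 4 to day 6, FOSL2 and JUN were higher (6.09%) and FOS was lower (5.98%). JUND alone differed between days 6 and 8 (2.56% in either direction), and JUN and JUND were lower on day 10 than on day 8 (4.97%). Against day 2, day 10 was higher for FOS, FOSB, FOSL2, JUN and JUNB (16.5%). The FOS fall from day 4 to day 6 was the only one of that step past 2-fold (0.206% of all entries), and without replicate 4 of day 4 no member was.

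Levels of different genes were compared per kb of the reference transcript. The counts were summarized by the authors with an adjustment for gene length whose setting is not given, and if it already removed length, levels without the division are the ones to compare. On day 0 the order was JUND at 142 CPM per kb, JUNB at 78.8, FOSL1 at 33.0, FOS at 24.9, FOSB at 19.5, FOSL2 at 16.9 and JUN at 14.5. The first 4 did not overlap with their next lower neighbour, whereas FOSB overlapped with FOSL2 and FOSL2 with JUN. JUND and JUNB kept the first and second place on all 7 days, overlapping only on day 10 (54.9 and 48.2 CPM per kb). JUN rose from the last place on day 0 to the third on days 2 to 10, and FOSB was last from day 1 on, at 0.0780 CPM per kb on day 2. On day 10 the order was JUND, JUNB, JUN, FOSL2, FOS, FOSL1 and FOSB, with overlap between FOSL2 and FOS and between FOS and FOSL1. Without the division, FOSL2 followed JUND and JUNB on day 0, at 114 CPM against 47.15 CPM for JUN. By its mean FOSL2 was then also above JUN on days 4 to 10, at 30.4 against 21.3 CPM on day 10. Libraries of FOSL2 and JUN overlapped on days 4 and 8.

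Summed over its 4 members, the FOS group was at 94.2 ± 7.05, 21.9 ± 2.69, 6.96 ± 0.739 and 10.7 ± 1.46 CPM per kb on days 0, 1, 2 and 10 (SD, n = 5). The JUN group was at 235 ± 18.1, 83.3 ± 4.68, 90.2 ± 7.92 and 109.6 ± 9.71 CPM per kb on the same days and at 144 ± 19.3 CPM per kb on day 8. The ratio of JUN group to FOS group was 2.51 ± 0.303, 3.84 ± 0.488, 13.0 ± 1.49 and 10.4 ± 1.42 on days 0, 1, 2 and 10. From day 2 on it lay between 6.63 and 17.3 in all libraries, above the highest library of day 1 at 4.62, which was itself above the highest of day 0 at 2.83.

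Within the FOS group the make-up changed from day to day. On day 0 FOSL1 held 34.9% ± 2.46, FOS 26.4% ± 1.09, FOSB 20.7% ± 0.517 and FOSL2 18.1% ± 2.35 of the summed CPM per kb (SD, n = 5). On day 1 FOSL1 held 78.4% ± 1.17 and FOS 4.17% ± 1.00, and on day 2 FOSL1 held 43.7% ± 8.09 and FOSL2 35.02% ± 4.76. FOS was the leading member on day 4 by its mean, 42.9% ± 9.55, and FOSL2 on days 6, 8 and 10, at 60.0% ± 9.62, 51.1% ± 9.51 and 42.6% ± 3.89. FOSB held at most 4.97% in any library after day 0. The JUN group kept its order, JUND holding 60.2% ± 1.19 on day 0 and 50.2% ± 2.49 on day 10, JUNB 33.6% ± 0.914 and 43.8% ± 2.31, and JUN 6.18% ± 0.592 and 5.98% ± 0.680. Without division by length the order in the FOS group changed. FOSL2 then held 38.5% on day 0 and FOSB 24.8%, FOSL1 held 51.9% and FOSL2 43.5% on day 1, and FOSL2 led on all later days, with 62.9% against 25.1% for FOS on day 4 and 70.9% on day 10. The ratio of JUN group to FOS group was then 1.58 ± 0.145, 3.003 ± 0.343, 7.22 ± 0.797 and 5.05 ± 0.511 on days 0, 1, 2 and 10.

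**Figure D4:**
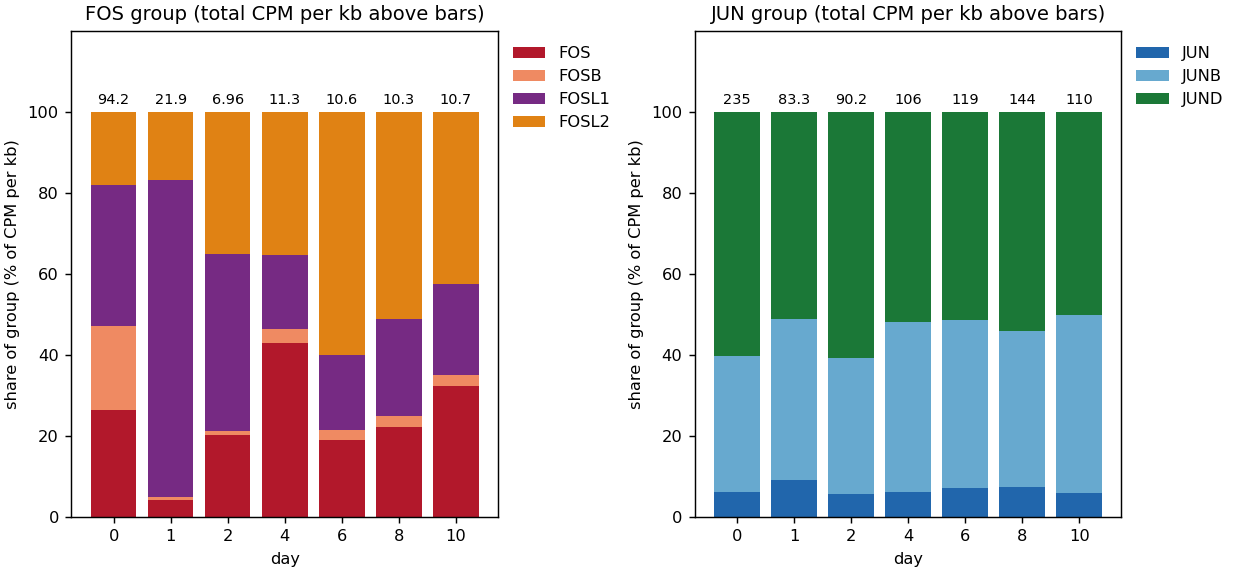
Mean share of each member in the summed CPM per kb of the FOS group (left) and the JUN group (right) by day, over 5 libraries each; the number above a bar is the mean total of the group in CPM per kb. FOSL1 fills 78.4% of the FOS group on day 1 and FOSL2 60.0% on day 6, while JUND stays between 50.2% and 60.7% of the JUN group.

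Members also differed in how they moved together. Over the 30 libraries of days 1 to 10, the Pearson correlation of log2 CPM was 0.794 between FOSL2 and JUNB, 0.742 between FOSL2 and JUN and 0.719 between JUNB and JUND. FOSL1 was negatively correlated with each of the others, from -0.051 with JUN to -0.654 with JUND. Its mean was 29.3 CPM on day 1 and 3.41 to 5.12 CPM on days 2 to 10, so that these values rest largely on day 1. After the mean of each day was removed, JUNB and JUND (0.616), JUN and JUNB (0.538) and FOSL2 and JUN (0.524) had the highest values, and FOSL2 and JUNB were at 0.473. The values of FOSL1 then ran from -0.382 with FOSL2 to 0.198 with FOSB, and that with JUND was 0.028. These are descriptions over libraries that share depth and scaling. By the same measure over all 35 libraries, the entries nearest to FOS were VPS37B (0.904), ARFIP2 (0.896) and NR4A1 (0.894), an immediate-early nuclear receptor that went from 260 on day 0 to 4.87 CPM on day 1. Those nearest to FOSB were IER5 (0.959), MDM2 (0.957), the ubiquitin ligase of p53, and PTP4A1 (0.952), and those nearest to FOSL1 were RPS27L (0.973), ATF5 (0.963) and LMNA (0.954). FOSL2 was nearest to the stress-response factor ATF3 (0.967), the histone demethylase KDM6B (0.958) and G0S2 (0.947), and JUN to ATF3 (0.872), ARRDC2 (0.866) and FOSL2 (0.865). JUNB was nearest to CST3 (0.968), ZNF768 (0.964) and BBC3 (0.949), which encodes the pro-apoptotic protein PUMA, and JUND to MYADM (0.948), CCDC71L (0.943) and RND3 (0.934). With day 0 left out, FOSL1 was nearest to the proteasome assembly factor POMP (0.965), PITHD1 (0.964) and the proteasome subunit PSMB2 (0.963), whose mean went from 473 on day 1 to 140 CPM on day 2. From day 0 to day 1, however, these 3 rose by mean (43.8 to 192, 91.1 to 137 and 106 to 473 CPM). FOSL1 fell over that step, from 56.1 to 29.3 CPM. Among the 3 entries nearest to JUNB with day 0 left out were CST3 (0.945) and the ribosomal protein gene RPS28 (0.943). FOSL2 was nearest to the glucose transporter gene SLC2A3 (0.934), ATF3 (0.921) and MAFF (0.900). The nearest to JUND were ZNF703, CFDP1 and ID3 (0.886, 0.884 and 0.881), and those to JUN were NCKAP1, SDCBP and CLIP2 (0.807, 0.802 and 0.787). The nearest to FOS was FAM234A (0.751) and that to FOSB was ZNF277 (0.761).

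Other zipper factors that can pair with FOS or JUN proteins moved in both directions. Of 14 tested, 4 were higher and 6 lower on day 1, and 3 were higher and 3 lower on day 10, with 52.7% of all entries called on day 1 and 31.9% on day 10 in either direction. The median log2 fold change of the list was -0.12 on both days, against -0.06 and -0.02 for all entries. ATF3, which pairs with JUN proteins under stress, fell from 108 ± 20.4 on day 0 to 13.1 ± 2.87 CPM on day 1 (log2 fold change -3.05 ± 0.13, SE, edgeR adjusted p = 5.69e-23) and was still at 16.3 ± 0.829 CPM on day 10 (-2.73 ± 0.13, edgeR adjusted p = 8.34e-21). JDP2, a JUN dimerization partner without an activation domain, fell by 2.05 ± 0.19 on the log2 scale on day 1 (edgeR adjusted p = 1.25e-12), from 12.6 to 3.01 CPM. BATF, a lymphoid partner of JUN proteins, rose by 1.53 ± 0.44 on day 1 (edgeR adjusted p = 0.00288) at low level, from 1.06 to 3.21 CPM.

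MAP kinase cascades pass growth and stress signals to FOS and JUN. Of 25 genes of these cascades, 9 were higher and 9 lower on day 1, and 2 were higher and 7 lower on day 10. The list medians were 0 and -0.01. Of all entries, 25.4% were higher and 27.3% lower on day 1, and 16.1% and 15.8% on day 10. The ribosomal S6 kinases went in opposite directions on day 1: RPS6KA1 rose from 48.7 ± 2.50 to 130 ± 5.55 CPM (log2 fold change 1.42 ± 0.07, edgeR adjusted p = 5.44e-21) and RPS6KA2 fell from 129 ± 4.71 to 38.5 ± 1.68 CPM (-1.74 ± 0.06, edgeR adjusted p = 2.46e-27). No gene of this list was called with a change of more than 2-fold on days 4 to 10. Of all entries, 9.41%, 6.71%, 8.18% and 5.93% were called past 2-fold on days 4, 6, 8 and 10.

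The dual-specificity phosphatases that switch MAP kinases off were mostly lower. Of 10 tested, 6 were lower and 1 was higher on day 1, and 7 were lower and 1 was higher on day 10. The medians were -0.58 and -0.66, against -0.06 and -0.02 for all entries. The share of all entries was 27.3% lower and 25.4% higher on day 1, and 15.8% and 16.1% on day 10. Many of these genes are themselves immediate-early genes. DUSP1 fell from 46.2 ± 6.92 on day 0 to 12.7 ± 1.58 CPM on day 1 (-1.87 ± 0.16, edgeR adjusted p = 1.57e-13) and 11.5 ± 3.22 CPM on day 10 (-2.003 ± 0.16, edgeR adjusted p = 1.65e-13). DUSP8 fell from 26.1 to 3.36 CPM on day 1 (-2.96 ± 0.18, edgeR adjusted p = 8.76e-18). DUSP4 fell from 164 to 39.9 CPM on day 10 (-2.04 ± 0.07, edgeR adjusted p = 6.09e-25).

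Of 8 factors that bind the serum and cyclic AMP response elements of such promoters, 4 were higher and 2 lower on day 1, and 3 were higher and 3 lower on day 10. The share of all entries was 25.4% higher and 27.3% lower on day 1, and 16.1% and 15.8% on day 10. ELK4 was the only one past 2-fold on day 1, falling from 200 ± 9.61 to 92.7 ± 3.96 CPM (-1.11 ± 0.06, edgeR adjusted p = 9.72e-19). None was past 2-fold on later days. Among all entries, 20.4% were past 2-fold on day 1 and 5.93% to 15.3% on later days. Among 10 genes for the turnover of FOS and JUN RNA or protein, 4 were higher and 4 lower on day 1, and 2 were higher and 3 lower on day 10, with medians of -0.12 and -0.08 against -0.06 and -0.02 for all entries, of which 52.7% and 31.9% were called in either direction. The binders of AU-rich RNA ZFP36 and ZFP36L1 fell on day 1, ZFP36 from 186 ± 7.35 to 58.0 ± 5.86 CPM (-1.68 ± 0.07, edgeR adjusted p = 2.05e-23) and ZFP36L1 from 85.3 ± 7.02 to 30.5 ± 2.49 CPM (-1.49 ± 0.08, edgeR adjusted p = 2.66e-20).

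Among genes known as AP-1 targets in other cell types, 18 of 21 had counts, IL2, IL6 and IVL having none. On day 1, 9 of the 18 were lower and 3 higher, and on day 10, 8 were lower and 2 higher. The medians were -0.58 and -0.60, against -0.06 and -0.02 for all entries. Among all entries, 27.3% were lower and 25.4% higher on day 1, and 15.8% and 16.1% on day 10. PLAU, the urokinase gene, fell from 5.16 ± 1.03 on day 0 to 1.42 ± 0.809 CPM on day 1 (-1.87 ± 0.35, edgeR adjusted p = 1.3e-05) and 0.736 ± 0.349 CPM on day 10 (-2.79 ± 0.38, edgeR adjusted p = 9.85e-08). HBEGF, a growth factor of the EGF family, fell from 5.70 to 1.49 CPM on day 1 (-1.92 ± 0.27, edgeR adjusted p = 5.25e-08). The metallothionein gene MT2A had 52 counts in all on day 0 and 11 on day 10 (-2.33 ± 0.59, edgeR adjusted p = 0.00183). SPP1, which encodes osteopontin, went the other way, rising from 127 ± 7.69 on day 0 to 453 ± 22 CPM on day 1 (1.83 ± 0.14, edgeR adjusted p = 3.33e-15) and 749 ± 142 CPM on day 10 (2.56 ± 0.14, edgeR adjusted p = 1.24e-18). CXCL8, which encodes the chemokine interleukin-8, rose from 37.0 ± 9.17 to 105 ± 10.2 CPM on day 1 (1.49 ± 0.15, edgeR adjusted p = 8.69e-12), but was lower than on day 0 on all 5 later days, at 8.81 ± 1.36 CPM on day 10 (-2.08 ± 0.18, edgeR adjusted p = 2.77e-12).

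**Figure D5:**
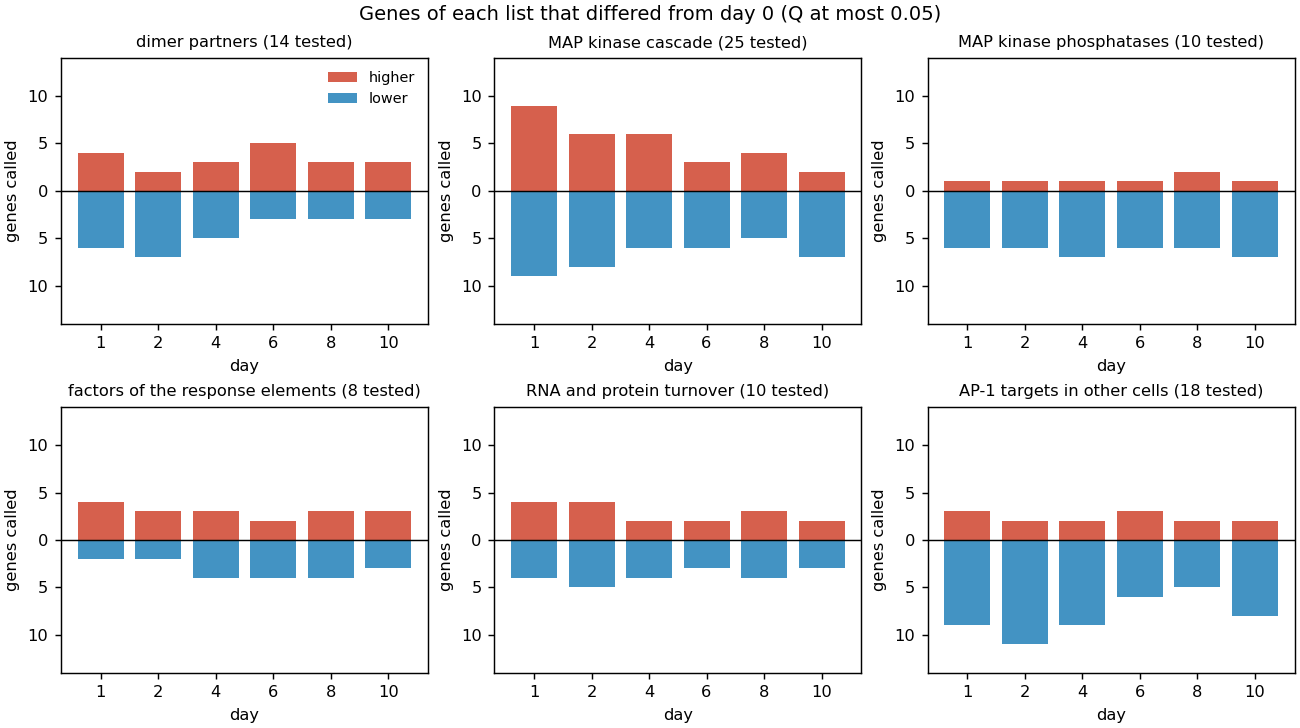
Number of genes of each list that were higher (above 0) or lower (below 0) than on day 0 at Q ≤ 0.05, by day. MAP kinase phosphatases and AP-1 targets have more lower than higher genes on all 6 days, 6 against 1 and 9 against 3 on day 1. Dimer partners and the MAP kinase cascade are nearer to even on day 1 but not on every day. Dimer partners have 7 lower and 2 higher on day 2, and the MAP kinase cascade has 7 lower and 2 higher on day 10. Of all entries, 15.8% to 27.3% were lower and 16.1% to 25.4% higher, depending on the day.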

How the data were processed

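RNA of 35 samples of RPMI-8226 cells (7 days, 5 subcultures each) was sequenced with a directional library kit. According to the methods and the processing notes of the submitters, the authors pseudoaligned the reads to the GENCODE transcriptome of GRCh38.p12 with kallisto 0.44.0, adjusting for GC content, and summarized them in R 3.5.0 with tximport, adjusting for length. The deposited values are estimated counts, whole numbers without normalization for depth, per gene symbol and biotype (84647 entries). The authors' own tests used DESeq2 1.25.8 and were not used here.

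Entries of the protein-coding biotype that had any count (17999) entered the quasi-likelihood test of edgeR 4.0.16, run under R 4.3.3. TMM factors were 0.929 to 1.08. The fit used day as a factor over all 35 libraries and Benjamini-Hochberg adjustment per comparison at Q ≤ 0.05. The SE of a log2 fold change is its size divided by the square root of the F statistic. It is too small for FOSB against day 0, where the counts after day 0 are few. p-values measure only the spread between these samples, which may be technical. CPM, and log2 CPM with a prior count of 2 for correlations over the 12301 entries kept by filterByExpr, came from the same factors. Levels per kb used the length of the reference transcript in GENCODE. Sequences and motif shares came from the RefSeq promoter table. The method was tested on simulated counts first. No libraries were identical.

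The 7 members, the pathway lists, the markers and the tests were chosen with earlier results of these data known, and the TGACGT motif and the group ratio without length after the data had been seen. Other genes were named by a rule: the 3 entries with the highest correlation to each member over all 35 libraries and over the 30 of days 1 to 10 (named in full, or in part for FOS, FOSB and JUNB in the latter), and in each list up to 2 rises and 2 falls of the greatest size, on day 1 and on day 10, past 2-fold with a mean log2 CPM above 0. Alternatives were filterByExpr, RLE factors, no factors, the replicate number as a block, only the days compared, DESeq2 1.42.0, all biotypes summed, and each library left out in turn. A marker of other cells and an entry that the rule names are not reported here. No sequencing batch or date was given, and none was tested.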

Additional observations from a re-analysis of the deposited data

Results flagged for a closer look

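Of 56 groups of 5 libraries checked (each member on each day, and the depth of each day), 4 held a library far from the others, where chance gives about 1 in 20. FOS was at 6.60 CPM in replicate 1 of day 2, with the other libraries at 1.80 to 2.52 CPM. JUN was at 55.3 CPM in replicate 1 of day 0 (the others at 44.8 to 45.4 CPM) and at 31.6 CPM in replicate 4 of day 1 (the others at 22.4 to 23.7 CPM). JUND was at 232 CPM in replicate 3 of day 0, with the others at 276 to 287 CPM. No depth total stood apart.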

How the results depend on the processing

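Against day 0, all 7 genes kept their direction and their call under the 7 other settings and with each library left out, and every list count stayed within 1.5 times its value. The smallest difference, JUN on day 8, ranged from -0.54 to -0.34 with a library left out (edgeR adjusted p up to 0.0288). Between later days, with a library left out, the number of members called was 1 to 2 for day 8 against day 6 (2 without replicate 2 of day 8) and 2 to 4 for day 10 against day 8 (4 without replicate 4 of day 8). Past 2-fold it was 1 to 2 for day 2 against day 1 (2, with FOSB added, without replicate 5 of day 1) and 0 to 1 for day 6 against day 4 (0 without replicate 4 of day 4). For day 4 against day 2, 4 members were called, and 5 to 6 under other settings, JUN and FOSL1 being near the threshold. Without division by length FOSL2 held 38.5%, 43.5%, 65.8% and 70.9% of its group on days 0, 1, 2 and 10, and JUND 58.8% and 49.1% on days 0 and 1. Libraries with the same replicate number deviated together weakly if at all (correlations with day 0 of -0.067 to 0.074, 8 of 30 libraries closest to their own number). The mean over same-numbered pairs was above that over other pairs on days 1, 2, 6, 8 and 10 (0.029 against -0.007 on day 8) and below it on day 4. The check covered pairs with day 0 only and cannot exclude pairing. The numbers were not taken as pairs in the main tests. With the replicate block 7 members were called on each day against day 0, 5 for day 4 against day 2, 2 for day 6 against day 4 and 4 for day 10 against day 2, where JUN was at 0.35 (edgeR adjusted p = 0.0564). FOSB after day 0, with 12 to 46 counts per day, is limited by depth. No called difference changed direction, and 7 differences between later days that were not called took the other sign under some setting (-0.16 to 0.27).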

Other observations

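The count table also holds entries of 3 members with a biotype other than protein coding. The processed transcripts of FOS had 39 counts in all on day 0, 4 on day 1, none on day 2, 20 on day 4 and 3 on day 10, beside 1538, 59, 113, 339 and 237 protein-coding counts. FOSB transcripts with a retained intron had 15 counts on day 0 and 2 to 10 on later days, beside 12 to 46 protein-coding counts on those days. Processed transcripts of FOSL2 had 0 to 7 counts on any day. Summed over biotypes, all 7 genes remained lower on each day against day 0.

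Values over time are given for some other genes of the lists. MAF, a zipper factor that is overexpressed through a translocation in this line, was lower on days 1 and 2 (log2 fold change -0.39 and -0.20) and higher on days 4 to 10 (0.15 to 0.33, all at Q ≤ 0.05 with edgeR) around a day 0 mean of 1750 CPM. ATF4, which pairs with zipper factors in the integrated stress response, was lower on days 1, 2, 4, 8 and 10 (Q ≤ 0.05 with edgeR). Its log2 fold changes on these days were -1.54, -1.93, -0.72, -0.54 and -0.36. On day 6 it differed by -0.06 and was not called. CREB1, which binds the cyclic AMP response element, was higher on all 6 days, from 0.32 on day 1 to 0.82 on day 6, whereas SRF, which binds the CArG box, was lower on all 6 days, from -0.54 to -0.92. MAPK14, which encodes 1 of the p38 kinases, was higher on all 6 days (0.34 to 0.67). The other p38 genes did not share this course. MAPK11 and MAPK12 were higher on day 1 (0.89 and 0.39) and not called later. MAPK13 was lower on day 1 (-0.20), higher on days 2 and 4 (0.49 and 0.17) and not called later. All genes of this paragraph fall outside the rule for named genes and were chosen after their values had been seen.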
